A study of Mus musculus with 16 samples.

Results

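The nodose and jugular ganglia of the vagus (NG/JG) and the T10 to L1 dorsal root ganglia (T10-L1 DRG) carry separate routes of sensory innervation from the viscera. Gene expression in sorted neurons of these ganglia was compared here in 8 libraries, 4 from NG/JG and 4 from T10-L1 DRG, chosen by their titles and source labels from the 16 libraries of a study that also covered trigeminal and L3-L5 ganglia. All 8 came from *Pirt*/TdTomato mice on the C57BL/6J strain, in which Cre driven by the *Pirt* locus, a gene of most primary sensory neurons, switches on a Rosa26 TdTomato reporter. The mice were untreated, labelled male and, by the study's methods, 8 to 12 weeks old. Left and right ganglia were dissociated, cells of medium to bright TdTomato were sorted in 2 cycles, and poly(A) RNA of each sorted pool was amplified by SMART-seq2.  The tissue label of the vagal libraries reads nodose ganglion, whereas their source label joins both vagal ganglia, and the neurons of each were not separated.

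As background, nodose neurons derive from the epibranchial placodes and jugular and spinal sensory neurons from the neural crest. Nodose neurons innervate the airways, heart and gut and are known for ATP-gated P2X and serotonin-gated 5-HT3 channels, gut hormone receptors and the homeodomain factors of visceral circuits. Thoracolumbar DRG hold skin, muscle and visceral afferents, among them peptidergic nociceptors that release CGRP and substance P and non-peptidergic nociceptors of the skin that carry MRGPRD. Hox genes are switched on in order along the body axis, so that the highest-numbered Hox gene of a cell reflects its level of origin.

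Libraries held 6542337 to 13333318 reads on genes, 7187906 to 9675318 of them per library in NG/JG. The NG/JG libraries nevertheless held 7425 to 11093 genes with 10 or more counts and the T10-L1 libraries 12830 to 13768, without overlap. Of the 12430 genes tested, 4951 (39.8%) had 3 counts or fewer in one NG/JG library and 100 or more in another, against 372 (2.99%) in T10-L1 DRG. NG/JG library 4 was the least complete, with 3 counts or fewer for 38.8% of the tested genes (12% to 24.1% in the other NG/JG libraries), and T10-L1 library 4 held far more macrophage transcripts than the others. The bounds of 3 and 100 counts were chosen after the data were seen, as was leaving out both of these libraries. Where the unadjusted p of a named gene rose over 0.05 without both of them, that value stands beside it. *Xist*, the RNA that coats the inactive X chromosome, had 2466 to 8362 counts in the 8 libraries, and the 13 chromosome Y genes of the tables had 0 counts in each, which goes against the label of male mice in both groups. Nothing in the labels says whether the 4 libraries of a ganglion came from separate animals, so p-values measure the spread between libraries.

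The neuron label was checked against marker lists. A list of 18 sensory neuron genes summed to 2109.8 to 6851 CPM (counts scaled to the TMM-adjusted library size) in NG/JG and 2755 to 5486 CPM in T10-L1 DRG, and the groups overlapped. Where 4 values follow each other they are those of libraries 1 to 4 in order. *Pirt* itself stood at 64.7, 52.1, 297 and 23.2 CPM in NG/JG and 94.3, 41.6, 60.2 and 216 CPM in T10-L1 DRG. *Avil*, an actin-severing protein of sensory neurons, was at 36.8, 130.3, 53.9 and 108 CPM in NG/JG and 122, 225, 360.3 and 204 CPM in T10-L1 DRG. Neuronal tubulin *Tubb3* was present in every library, at 242, 982, 1117 and 513 CPM in NG/JG and 446, 711, 1021 and 494 CPM in T10-L1 DRG. Satellite glial markers summed to 40712 to 51792 CPM in NG/JG and 27918 to 39115 CPM in T10-L1 DRG, with every NG/JG library above every T10-L1 library, but 9 of the 18 markers were higher and 9 lower in NG/JG by the mean (median log2 fold change -0.03). The sum is led by abundant genes, of which *Apoe* alone stood at 14563 CPM or more in each library. Schwann cell myelin genes summed to 19200.0 to 44945 CPM and 19990.1 to 35235 CPM. Both groups therefore held neuronal and glial transcripts, and a difference between them can lie in either.

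**Figure D1:**
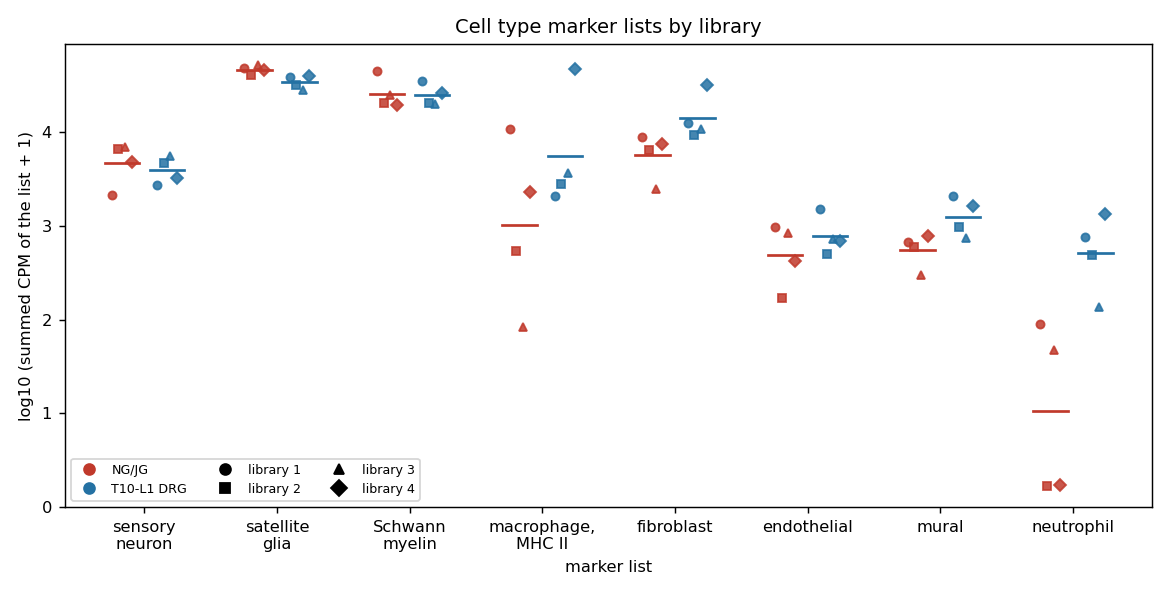
Summed level of 8 cell type marker lists (x axis) in each library, as log10 of the summed CPM plus 1 (y axis), with NG/JG in red, T10-L1 DRG in blue, a symbol per library and a bar at the mean of the 4 plotted values. The sum of the satellite glial markers lay higher in NG/JG and those of the neutrophil and fibroblast markers lower, without overlap, while the sensory neuron list overlapped between 2109.8 to 6851 CPM in NG/JG and 2755 to 5486 CPM in T10-L1 DRG.

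Vagal and thoracolumbar samples were set apart at an adjusted p under 0.05 by 4 genes (0.0322% of the 12430 tested), all lower in NG/JG, and none of them is a neuronal gene: the pericyte and smooth muscle genes *Rgs5* and *Acta2* and the neutrophil granule genes *S100a9* and *Ngp*. No gene was higher in NG/JG at that threshold in edgeR's quasi-likelihood test with Benjamini-Hochberg adjustment, where 230 genes (1.85%) were higher and 505 (4.06%) lower at an unadjusted p under 0.05, whereas DESeq2 called 72 genes (0.579%) higher and 316 (2.54%) lower at an adjusted p under 0.05. In 242 genes (1.95%) every NG/JG library lay above every T10-L1 library, and in 756 (6.08%) every one lay below. These percentages are the background against which the gene classes below are read. The filter on low counts, which asks for about 1.08 CPM in at least 4 libraries, was met in all 4 T10-L1 libraries but not in all 4 NG/JG libraries by 5685 of the tested genes and in the opposite sense by 48, so a gene high in vagal libraries alone could enter the test only if all 4 held it. With 1 library left out at a time, 1 to 5 genes passed the adjusted threshold, and the adjusted p of *Rgs5* was 0.00616 to 0.03, of *S100a9* 0.00616 to 0.204, of *Acta2* 0.019 to 0.204 and of *Ngp* 0.00616 to 0.204. The latter 3 stayed under 0.05 only without T10-L1 library 3. Without library 4 of each group, no gene passed the adjusted threshold, and 222 genes were higher and 578 lower at an unadjusted p under 0.05, of which 97 and 390 were also called with all 8 libraries.

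**Figure D2:**
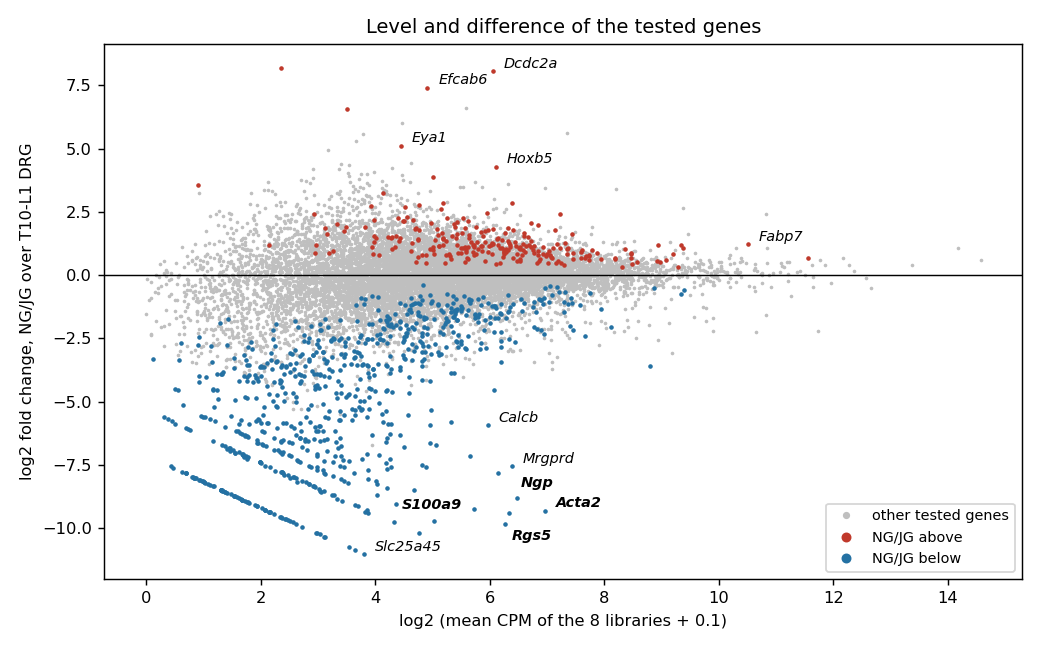
Difference between NG/JG and T10-L1 DRG (y axis, log2 fold change from edgeR) against the level of each tested gene (x axis, log2 of the mean CPM of the 8 libraries plus 0.1), with the 242 genes whose NG/JG libraries lay above all T10-L1 libraries in red and the 756 that lay below in blue. *Rgs5*, *Acta2*, *S100a9* and *Ngp*, in bold, passed an adjusted p under 0.05, the genes not reported here are not drawn, and the slanted lines of points on the lower edge are genes at or near 0 counts in NG/JG.

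The Hox genes, which record position along the body axis, differed in both directions, with *Hoxb5* and *Hoxb6* higher in NG/JG and paralog groups 9 to 13 at 0 or 1 counts there. *Hoxb5* (chromosome 11, 96163909 to 96167434, plus strand, mm9) was at 41.3, 103, 230.4 and 146 CPM in NG/JG and 14.4, 2.46, 5.5 and 4.73 CPM in T10-L1 DRG, so that the lowest NG/JG library was above the highest T10-L1 library. For it the fit gave a log2 fold change of 4.27 ± 0.79 (SE), unadjusted p = 0.000331, adjusted p = 0.115. Its neighbor *Hoxb6* was at 20.1, 28.4, 14.8 and 25.3 CPM in NG/JG and 9.21, 3.6, 7.68 and 3.15 CPM in T10-L1 DRG, again without overlap (log2 fold change of 1.90 ± 1.00 (SE), adjusted p = 0.995). At the other end of the series *Hoxc9* had 0 counts in each NG/JG library and 10.2, 3.42, 3.96 and 7.25 CPM in the T10-L1 libraries, at least 16.4-fold lower in NG/JG when 3 counts per library are taken as the floor (unadjusted p = 0.00113, adjusted p = 0.115). *Hoxd8* was at least 6.29-fold lower. *Hoxa7* (chromosome 6, 52164490 to 52171853, minus strand) stood at 2.66, 0.112, 0.135 and 0 CPM in NG/JG and 38.9, 26, 28.1 and 22.1 CPM in T10-L1 DRG, with log2 fold change of -5.30 ± 1.70 (SE), adjusted p = 0.381, and NG/JG library 1 was the one vagal library with more than 1 count of it. As *Hoxa7* shares 20.4% of its exon length with *2700086A05Rik* and the strand setting of the counts is not given in the sources used here, reads of the pair may be mixed.

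By paralog group, 12 of the 39 Hox genes passed the filter, 7 of them through T10-L1 DRG alone, with 2 of the 12 above and 4 below without overlap, beside backgrounds of 1.95% and 6.08%. All 39 can be counted without the filter. Of the 16 genes of paralog groups 9 to 13, 0 had more than 3 counts in any NG/JG library and 9 did in at least one T10-L1 library. Summed over those 16 genes, the libraries held 1, 0, 1 and 1 counts in NG/JG and 359, 65, 175 and 262 counts in T10-L1 DRG. Groups 6 to 8 summed to 22.7 to 28.6 CPM in NG/JG and 36.3 to 80.8 CPM in T10-L1 DRG, and in NG/JG this was mostly *Hoxb6*. Of the 3 genes of group 5, *Hoxb5* alone was higher in NG/JG. *Hoxa5* had 1, 0, 0 and 0 counts in NG/JG and 1, 72, 6 and 75 in T10-L1 DRG, and *Hoxc5* had 0 counts in each NG/JG library and 67, 50, 0 and 16 in T10-L1 DRG, so both leaned toward T10-L1 DRG. Groups 1 to 4 overlapped at 11.9 to 53.1 and 27.4 to 71.8 CPM. In sorted pools, more cells of a type and more RNA per cell cannot be told apart, here and for every gene below. In the other 6 libraries, the unadjusted p for *Hoxb5* was 0.00303.

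**Figure D3:**
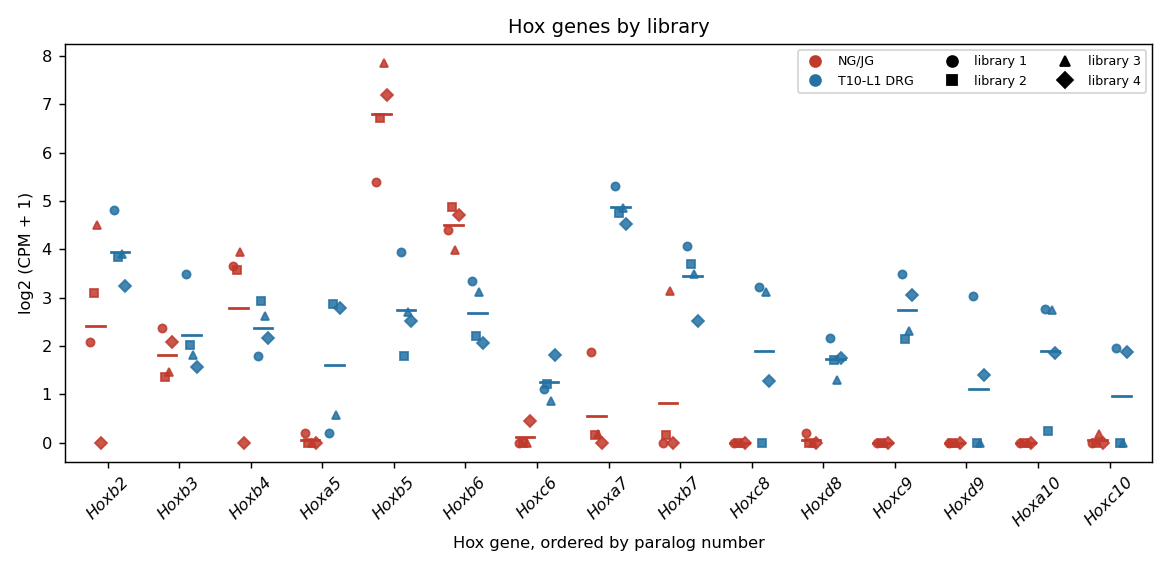
Level of 15 Hox genes in each library (y axis, log2 of CPM plus 1), ordered by paralog number (x axis), with NG/JG in red, T10-L1 DRG in blue, a symbol per library and a bar at the mean of the 4 plotted values. *Hoxb5* and *Hoxb6* lay higher in all NG/JG libraries, while *Hoxc8*, *Hoxc9*, *Hoxd9* and *Hoxa10* were at 0 counts in all of them.

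Transcription factors of sensory lineages differed less evenly. *Eya1*, a coactivator of placode development (chromosome 1, 14159035 to 14300281, minus strand), was at 15.9, 47.5, 101 and 5.71 CPM in NG/JG and 0.72, 1.67, 0.081 and 2.36 CPM in T10-L1 DRG, without overlap. The fit returned a log2 fold change of 5.11 ± 1.43 (SE), unadjusted p = 0.00528, adjusted p = 0.229. *Isl1*, a LIM homeodomain factor of all sensory neurons, was at 26.3, 182, 97.2 and 44 CPM in NG/JG and 14.2, 26.8, 29.5 and 15.2 CPM in T10-L1 DRG, and NG/JG library 1 fell within the T10-L1 range. edgeR gave it a log2 fold change of 2.02 ± 0.72 (SE), unadjusted p = 0.0182, adjusted p = 0.513. *Pou4f3*, a POU factor also used by auditory hair cells, had 0 counts in each NG/JG library and 5.04, 1.67, 2.02 and 1.26 CPM in T10-L1 DRG, at least 6.57-fold lower in NG/JG (unadjusted p = 0.00113). Factors of crest-derived nociceptors overlapped between the groups. *Prdm12*, which specifies nociceptors, was at 0.42, 20.3, 4.2 and 0.119 CPM in NG/JG and 26.3, 63, 75.4 and 13.1 CPM in T10-L1 DRG, and 2 of the 4 vagal libraries were under 1 CPM (adjusted p = 0.989). *Runx1*, the factor of the non-peptidergic lineage, reached 41.0 CPM in NG/JG library 1 and 0.677 CPM or less in the other vagal libraries, against 12.4, 35.2, 64.3 and 103 CPM. *Prrxl1*, which shapes the spinal nociceptive circuit, was at 0.979, 11.7, 9.07 and 0 CPM in NG/JG and 1.73, 15.3, 16.4 and 9.93 CPM in T10-L1 DRG. *Phox2a*, a homeodomain factor of visceral reflex circuits, had 65 counts in NG/JG library 1 and 0 counts in each of the other 7 libraries. Of 33 listed factors 21 were tested, with a median log2 fold change of -0.14 beside 0.02 over all tested genes. Of the 21, 1 lay above and 1 below without overlap, beside 1.95% and 6.08% of all genes.

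Receptors by which vagal afferents read their targets were high in some vagal libraries and nearly absent in others. *P2rx2*, a P2X subunit that pairs with P2RX3 (chromosome 5, 110768831 to 110772168, minus strand), was at 182, 36.2, 947 and 0.119 CPM in NG/JG and 0.576, 0.088, 0.485 and 0.315 CPM in T10-L1 DRG. Its counts were 1304, 323, 6998 and 1 in NG/JG and 4, 1, 6 and 4 in T10-L1 DRG, so that 3 vagal libraries stood far above every T10-L1 library and library 4 did not. The filter left *P2rx2* out, and in the fit without a filter it gave a log2 fold change of 9.61 ± 1.87 (SE), unadjusted p = 0.000195 and adjusted p = 0.168. *P2rx3*, the partner shared with spinal nociceptors, was at 152, 38.8, 437 and 0.714 CPM in NG/JG and 16.7, 135, 204 and 168 CPM in T10-L1 DRG, with log2 fold change of 0.26 ± 1.25 (SE), adjusted p = 1. Of 15 P2X and P2Y receptors 9 were tested and each overlapped between the groups, while 1.95% of all genes lay above and 6.08% below.

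*Htr3a*, the obligatory subunit of the 5-HT3 channel through which gut serotonin excites vagal endings (chromosome 9, 48707319 to 48719204, minus strand), was at 145, 369.5, 983 and 647 CPM in NG/JG and 2.59, 11.6, 187 and 1.26 CPM in T10-L1 DRG. T10-L1 library 3 lay within the vagal range and the other T10-L1 libraries lay far below it (log2 fold change of 3.40 ± 1.41 (SE), unadjusted p = 0.0375, adjusted p = 0.745), and the unadjusted p was 0.0833 without library 4 of each group. *Htr3b*, its partner, reached 16.4 CPM in NG/JG library 2 and 7.6 CPM in T10-L1 library 3 and was at 2.1 CPM or less elsewhere. *Htr4*, a G protein-coupled serotonin receptor, ran the other way, at 0.14, 1.91, 2.44 and 0.238 CPM in NG/JG and 1.15, 28.5, 52.7 and 12 CPM in T10-L1 DRG (log2 fold change of -4.30 ± 1.60 (SE), unadjusted p = 0.0227, adjusted p = 0.585), with overlap through T10-L1 library 1.

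Gut peptide receptors followed the uneven pattern. *Cckar*, the receptor by which cholecystokinin signals satiety, was at 0.42, 43.5, 120.4 and 0.119 CPM in NG/JG and 0.144, 8.86, 0.323 and 1.18 CPM in T10-L1 DRG, and *Npy2r*, the PYY receptor, at 3.78, 60.3, 65.7 and 0.119 CPM in NG/JG and 3.46, 1.05, 5.74 and 2.21 CPM in T10-L1 DRG. For both, NG/JG libraries 2 and 3 were the highest of the 8 and library 4 the lowest (adjusted p = 0.995 and 0.919). *Cckbr*, the gastrin receptor, had 98 and 215 counts in the same NG/JG libraries 2 and 3 and 0 to 3 counts in the other 6. *Glp1r*, the receptor of the incretin GLP-1, had 0 counts in each library, which allows up to 3 counts per library. On the T10-L1 side, *Lepr*, the leptin receptor, had 0 counts in each NG/JG library and 17.3, 8.77, 5.09 and 31.3 CPM in T10-L1 DRG, at least 41.1-fold lower in NG/JG (unadjusted p = 0.00141). *Sstr4*, a somatostatin receptor, and *Adcyap1r1*, the PACAP receptor, were at least 10.6-fold and 29.2-fold lower. Of 69 receptors listed for gut and metabolic signals 68 were measured and 18 tested, with a median log2 fold change of -0.33. Of the 18, 0 lay above and 3 (16.7%) below, beside 1.95% and 6.08% of all genes. The filter was met through T10-L1 DRG alone by 10 of the 18 and through NG/JG alone by 0, so these counts say nothing about the class.

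Receptors of vascular and airway signals showed 4 genes that were all but absent from the vagal libraries. *Agtr1a*, the angiotensin II receptor, was at 0.559, 0, 0.135 and 0.238 CPM in NG/JG and 13.7, 45.1, 35.5 and 38.8 CPM in T10-L1 DRG. This was a log2 fold change of -7.10 ± 1.49 (SE), unadjusted p = 0.000794, adjusted p = 0.115. *Ptger4*, a prostaglandin E2 receptor, was at 0.559, 0.112, 0 and 0 CPM in NG/JG and 11.8, 1.93, 27.4 and 66.7 CPM in T10-L1 DRG. The thromboxane receptor *Tbxa2r* and the alpha-2 adrenoceptor *Adra2a* were at least 15.6-fold and 8.66-fold lower in NG/JG. These were the 4 of 22 tested members (18.2%) without overlap, all below, beside 6.08% of all genes, and the median of the 22 was -0.14. The filter was met through T10-L1 DRG alone by 11 of the 22 and through NG/JG alone by 0, so this count says nothing about the class. By the mean, 11 of the 22 were higher in NG/JG. *Agtr1a* is also a marker of the non-peptidergic class described below.

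**Figure D4:**
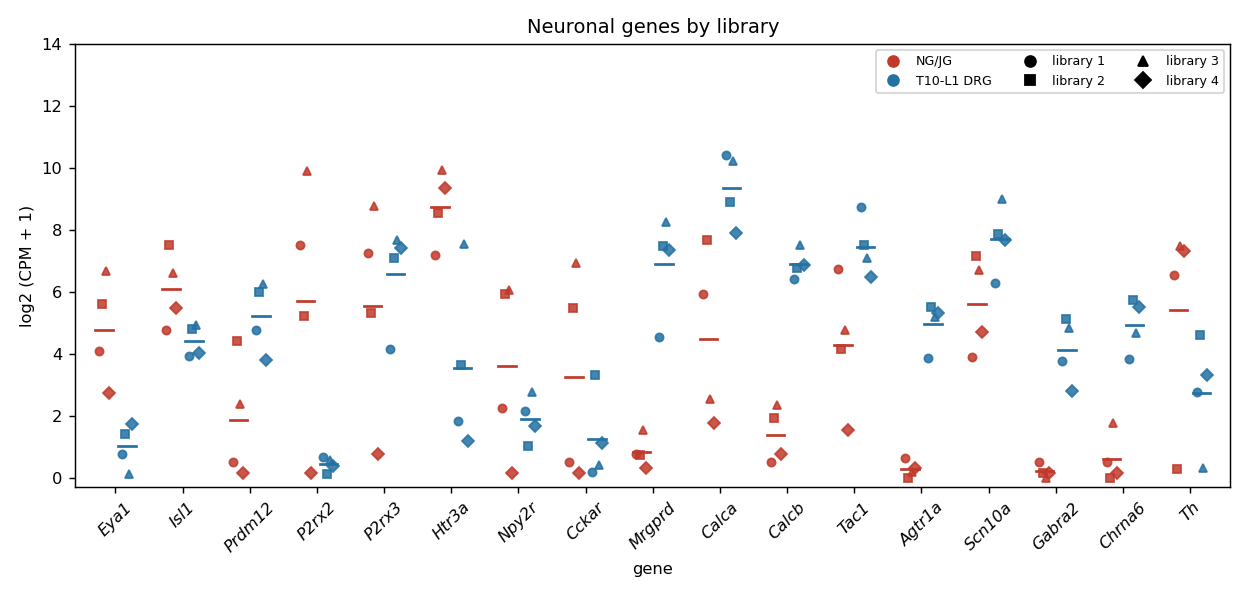
Level of 17 neuronal genes in each library (y axis, log2 of CPM plus 1; x axis, gene), with NG/JG in red, T10-L1 DRG in blue, a symbol per library and a bar at the mean of the 4 plotted values. *Mrgprd*, *Calca*, *Calcb*, *Agtr1a*, *Gabra2* and *Chrna6* lay lower in all NG/JG libraries and *Eya1* higher, while *P2rx2*, *P2rx3*, *Npy2r* and *Cckar* in NG/JG library 4 (diamonds) lay far below the other vagal maxima.

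Among neuropeptide precursors, the CGRP genes *Calcb* and *Calca* lay lower in NG/JG. *Calcb*, which encodes beta-CGRP (chromosome 7, 121862157 to 121866879, plus strand), was at 0.42, 2.8, 4.06 and 0.714 CPM in NG/JG and 84.5, 108, 180.0 and 116 CPM in T10-L1 DRG, without overlap. Its fit had a log2 fold change of -5.93 ± 0.88 (SE), unadjusted p = 5.72e-05, adjusted p = 0.0711. *Calca*, which encodes alpha-CGRP and calcitonin (chromosome 7, 121774994 to 121779871, minus strand), was at 59.7, 204, 4.87 and 2.38 CPM in NG/JG and 1361, 472, 1203 and 239.8 CPM in T10-L1 DRG, also without overlap, and varied far more among the vagal libraries than among the T10-L1 libraries. Tested, it gave a log2 fold change of -3.60 ± 1.25 (SE), unadjusted p = 0.0169, adjusted p = 0.488. The family of 4 summed to 9.07 to 237 CPM in NG/JG and 374 to 1452 CPM in T10-L1 DRG. Of its 3 tested members, 1 had a higher mean in NG/JG (log2 fold change 1.27). Only 11 of the 1431 and 11 of the 913 distinct 50-base words of their coding transcripts are shared between *Calca* and *Calcb*, at the read length of 50 bases, so few reads could come from either gene. *Tac1*, the precursor of substance P, was at 105, 16.8, 26.3 and 1.9 CPM in NG/JG and 429.8, 179.7, 136 and 87.7 CPM in T10-L1 DRG, and NG/JG library 1 overlapped the lower T10-L1 libraries. The model gave a log2 fold change of -2.47 ± 1.00 (SE), unadjusted p = 0.0329, adjusted p = 0.708. Once both libraries 4 were left out, unadjusted p was 0.000375 for *Calcb* and 0.0164 for *Calca*.

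The tested genes among the other peptides were split, with 6 of 11 higher and 5 lower in NG/JG by the mean, and several rested on single libraries. *Adcyap1*, the PACAP precursor, was at 89.1, 78.9, 289 and 43.6 CPM in NG/JG and 79.7, 16, 40.2 and 21.8 CPM in T10-L1 DRG. The test gave a log2 fold change of 1.66 ± 0.73 (SE), unadjusted p = 0.0472, adjusted p = 0.823, and the unadjusted p was 0.0512 without library 4 of each group. *Cartpt*, the CART precursor found in vagal afferents, was at 0.28, 331, 107 and 20.6 CPM in NG/JG and 6.19, 35.6, 27.9 and 4.65 CPM in T10-L1 DRG, and *Vip* had 3, 1, 3214 and 0 counts in NG/JG and 2 to 6 counts in T10-L1 DRG. *Vip* thus rested on NG/JG library 3 alone. *Chgb*, a granin of secretory granules, was at 5.73, 0, 7.58 and 0.119 CPM in NG/JG and 22.7, 11.7, 8.97 and 8.19 CPM in T10-L1 DRG, the one of these 11 tested genes that lay below without overlap (log2 fold change of -1.94 ± 1.66 (SE), adjusted p = 1). Of 39 peptide genes 15 were tested, with a median log2 fold change of -0.05. Of the 15, 0 lay above and 3 (20%) below without overlap, beside 1.95% and 6.08% of all genes. The filter was met through T10-L1 DRG alone by 9 of the 15 and through NG/JG alone by 0, so these counts say nothing about the class.

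Non-peptidergic nociceptors carry MRGPRD, a receptor for beta-alanine. *Mrgprd* (chromosome 7, 152500740 to 152509964, plus strand) was at 0.699, 0.672, 1.9 and 0.238 CPM in NG/JG and 22.3, 179, 304 and 162 CPM in T10-L1 DRG, and its adjusted p of 0.0588 was the closest to the threshold of any neuronal gene printed here (log2 fold change -7.56 ± 1.03 (SE)). *Mrgpre* was at 0.979, 0.336, 7.45 and 0 CPM in NG/JG and 11.8, 30.9, 42.8 and 15 CPM in T10-L1 DRG, below without overlap (log2 fold change of -3.51 ± 1.66 (SE), adjusted p = 0.901). The 20 Mas-related receptors summed to 22 to 69.9 CPM in NG/JG and 99.3 to 473 CPM in T10-L1 DRG, and *Mrgprd* made up most of the T10-L1 sum in libraries 2 to 4. Of 15 markers of this nociceptor class 14 were tested, 11 of them with a lower mean in NG/JG and a median log2 fold change of -1.90. Of the 14, 2 (14.3%), *Mrgprd* and *Agtr1a*, lay below without overlap, beside 6.08% of all genes. The filter was met through T10-L1 DRG alone by 10 of the 14 and through NG/JG alone by 0, so these counts say nothing about the class. *Cd55*, a complement regulator of these cells, was at 19.4, 72.5, 63.1 and 43.2 CPM in NG/JG and 35.4, 292, 299.6 and 241 CPM in T10-L1 DRG (log2 fold change of -2.13 ± 0.67 (SE), unadjusted p = 0.00965, adjusted p = 0.342), and *P2rx3* in the same list gave 0.26. Among 21 itch receptors and peptides, 8 were tested and each overlapped, while 1.95% of all genes lay above and 6.08% below.

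The RefSeq table of sequences before gene starts (GRCm38.p6, a later build than the mm9 of the counts) held entries for *Hoxa7*, *Mrgprd*, *Calca* and *Acta2* and none for *Hoxb5*, *Hoxc9* or *Calcb*. The 250 bases upstream of these 4 genes, each of which lay lower in NG/JG without overlap, were searched on both strands for 9 motifs. They were the TATA box TATAAA, the CCAAT box, the E box CAGCTG, the cyclic AMP response core TGACG, the homeodomain sites TAATTA and TAAT, the GC box GGGCGG, the Runx core TGTGGT and the CArG box, which was searched as CC, then 6 bases that are each A or T, then GG. Exact matches alone were counted, so a site that differs in 1 base was missed. The motifs and genes were chosen after the data were seen, and TAAT, which TAATTA contains, and TGTGGT were added after the first matches were seen. The windows lie at chr6:52218574-52218823 (minus strand), chr7:145314585-145314834 (plus strand), chr7:114636358-114636607 (minus strand) and chr19:34255374-34255623 (minus strand), each read 5′ to 3′ toward the gene with matches in capitals.
Hoxa7: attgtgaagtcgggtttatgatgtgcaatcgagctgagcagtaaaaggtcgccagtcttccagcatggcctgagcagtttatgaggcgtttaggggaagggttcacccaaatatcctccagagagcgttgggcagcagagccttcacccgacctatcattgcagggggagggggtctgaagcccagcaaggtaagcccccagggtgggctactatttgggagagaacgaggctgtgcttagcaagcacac
Mrgprd: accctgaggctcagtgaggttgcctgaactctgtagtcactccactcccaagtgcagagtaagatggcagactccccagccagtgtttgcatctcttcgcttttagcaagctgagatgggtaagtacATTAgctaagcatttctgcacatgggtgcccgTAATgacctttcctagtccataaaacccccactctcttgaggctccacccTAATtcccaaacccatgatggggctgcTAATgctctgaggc
Calca: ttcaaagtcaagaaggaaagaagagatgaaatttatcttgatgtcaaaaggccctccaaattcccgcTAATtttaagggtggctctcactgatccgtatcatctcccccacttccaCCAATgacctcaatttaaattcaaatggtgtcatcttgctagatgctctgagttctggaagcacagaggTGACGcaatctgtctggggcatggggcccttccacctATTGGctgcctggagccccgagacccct
Acta2: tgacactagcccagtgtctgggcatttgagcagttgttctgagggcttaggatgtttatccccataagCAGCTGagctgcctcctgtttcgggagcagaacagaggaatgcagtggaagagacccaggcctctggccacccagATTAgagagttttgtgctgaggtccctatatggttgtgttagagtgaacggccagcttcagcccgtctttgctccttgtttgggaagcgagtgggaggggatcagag
The *Hoxa7* window held none of the 9 motifs. The *Mrgprd* window held 4 matches to TAAT, the *Calca* window 1 to TAAT, 2 to CCAAT and 1 to TGACG, and the *Acta2* window 1 to TAAT and 1 to CAGCTG. Of 27025 windows of this length, 55.3% held TAAT, 34.5% CCAAT, 17.9% TGACG and 12.8% CAGCTG. The other motifs had no exact match in the 4 windows and stood in 13% (TATAAA), 4.9% (TAATTA), 32.9% (GGGCGG), 14.2% (TGTGGT) and 1.4% (CArG box) of all windows.

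Sodium channel subunits differed in both directions. *Scn10a*, which encodes the tetrodotoxin-resistant channel of nociceptors (chromosome 9, 119517584 to 119603478, minus strand), was at 14, 143, 103 and 25 CPM in NG/JG and 76.9, 234, 508 and 202 CPM in T10-L1 DRG, overlapping through T10-L1 library 1. The fit returned a log2 fold change of -1.84 ± 0.79 (SE), unadjusted p = 0.0429, adjusted p = 0.8 (unadjusted p = 0.11 without library 4 of each group). *Nalcn*, the sodium leak channel, was at 98.3, 13.6, 67.4 and 0.951 CPM in NG/JG and 1.01, 3.77, 3.48 and 5.91 CPM in T10-L1 DRG, and *Scn2a1*, an alpha subunit of central axons, at 46.8, 40.9, 65.1 and 0.951 CPM in NG/JG and 5.61, 3.33, 3.72 and 9.93 CPM in T10-L1 DRG. Both stood above T10-L1 DRG in NG/JG libraries 1 to 3 and not in library 4 (unadjusted p = 0.0229 and 0.046). *Scn4b*, an accessory subunit of fast resurgent current, was at 2.94, 13.7, 0.135 and 0.119 CPM in NG/JG and 48.1, 35.2, 67.6 and 15.1 CPM in T10-L1 DRG, below without overlap (adjusted p = 0.865). Over the 14 tested of 15 members the median log2 fold change was 0.94, with 9 positive. Of the 14, 1 lay above and 1 below without overlap, beside 1.95% and 6.08% of all genes. With both libraries 4 left out, 4 of 14 lay above and 2 below, beside 5.38% and 10.5% of all genes in those 6 libraries.

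Several potassium channel genes lay lower in NG/JG, while the sum over the class overlapped. Of 95 genes 53 were tested, and 10 (18.9%) lay below without overlap while 0 lay above, beside 6.08% and 1.95% of all genes. The filter was met through T10-L1 DRG alone by 30 of the 53, so these counts say nothing about the class. *Kcna4*, a subunit of A-type current in small nociceptors, was at 0, 0, 0.135 and 0 CPM in NG/JG and 11.4, 26.8, 9.46 and 4.49 CPM in T10-L1 DRG, at least 34.3-fold lower in NG/JG (unadjusted p = 0.0011). *Kcnmb1* and *Kcnmb2*, beta subunits of the BK channel, were at least 147-fold and 10.8-fold lower, *Kcnq5* of the M-current at least 20.2-fold and *Kcnv1* at least 59.8-fold. *Kcnab2*, a cytoplasmic beta subunit well counted in both groups, was at 45.6, 55.8, 18.1 and 13.8 CPM in NG/JG and 99.3, 110.3, 151 and 73.4 CPM in T10-L1 DRG. edgeR gave it a log2 fold change of -1.70 ± 0.58 (SE), unadjusted p = 0.0153, adjusted p = 0.461. The sum over all 95 was 2813 to 3331 CPM in NG/JG and 2509 to 3608 CPM in T10-L1 DRG and overlapped. Without library 4 of each group, 12 of 53 (22.6%) lay below and 2 (3.77%) above, beside 10.5% and 5.38% of all genes in the same libraries. *Kcnmb1* is also a gene of smooth muscle, whose markers were lower in NG/JG, and the part of other cells in these values was not tested.

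Channels and receptors of synaptic and modulatory input gave single genes that differed. *Gabra2* and *Gabra3*, GABA-A alpha subunits, were at 12.7, 34.2, 27.5 and 5.99 CPM and 9.07, 7.19, 19 and 19.8 CPM in T10-L1 DRG and at 0.42 CPM or less in each NG/JG library, at least 52.9-fold and 36.2-fold lower. *Chrna6*, a nicotinic subunit, was at 0.42, 0, 2.44 and 0.119 CPM in NG/JG and 13.1, 52.4, 24.7 and 44.3 CPM in T10-L1 DRG. This was a log2 fold change of -5.48 ± 1.64 (SE), unadjusted p = 0.00773, adjusted p = 0.295. The ganglionic nicotinic subunits *Chrna3* and *Chrnb4* were uneven, *Chrnb4* at 0.42, 79.7, 231 and 277 CPM in NG/JG and 36.7, 12, 0.323 and 0.236 CPM in T10-L1 DRG. *Ano1*, a calcium-activated chloride channel, was at 0.699, 0, 0 and 0 CPM in NG/JG and 13.4, 11.3, 5.66 and 37 CPM in T10-L1 DRG. Its fit had a log2 fold change of -6.52 ± 1.99 (SE), unadjusted p = 0.00867, adjusted p = 0.319. *Gria1*, an AMPA receptor subunit, was at 16.2, 32.7, 9.21 and 6.42 CPM in NG/JG and 0.864, 4.3, 4.28 and 6.38 CPM in T10-L1 DRG, above without overlap (adjusted p = 1). *Slc17a6*, the vesicular glutamate transporter of sensory neurons, was at 58.7, 177, 306 and 0.238 CPM in NG/JG and 40, 93.5, 93.5 and 43.3 CPM in T10-L1 DRG. NG/JG library 4 thus held almost no *Slc17a6*, *P2rx3* or *Trpv1* (0.119 CPM) but 647 CPM of *Htr3a* and 1447 CPM of the synaptic gene *Snap25*, the highest of the 8 for *Snap25*.

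In several classes that define sensory neuron types, the tested genes overlapped between the groups throughout. This held for 17 TRP channels (median log2 fold change 0.42), 14 voltage-gated calcium channel subunits (-0.10), 16 neurotrophin and GDNF family receptors (-0.44) and 14 large-fiber and neurofilament genes (-0.22). Over all tested genes only 1.95% lay above and 6.08% below, so overlap throughout lists of this size does not show that these classes are alike. The TRPA and TRPM members summed to 229.6 to 335 CPM in NG/JG and 147 to 184 CPM in T10-L1 DRG, above without overlap. The capsaicin receptor *Trpv1* was at 18, 53.8, 189 and 0.119 CPM in NG/JG and 66.8, 34.8, 13.1 and 11.2 CPM in T10-L1 DRG, and the irritant receptor *Trpa1* at 54.8, 68, 2.17 and 39.7 CPM in NG/JG and 0.288, 31.6, 41.9 and 21.8 CPM in T10-L1 DRG. With log2 fold change of 1.05 ± 1.36 (SE), adjusted p = 1 for *Trpv1* and log2 fold change of 0.78 ± 1.27 (SE), adjusted p = 1 for *Trpa1*, the SE exceeded the difference. The cold receptor *Trpm8* had 0 counts in each NG/JG library and 7, 0, 6 and 23 counts in T10-L1 DRG. *Ntrk2*, the BDNF receptor, overlapped at 562, 484, 747 and 412 CPM in NG/JG and 587, 437, 365 and 313 CPM in T10-L1 DRG (log2 fold change of 0.37 ± 0.30 (SE), adjusted p = 1). *Ntrk3* gave log2 fold change of -0.31 ± 0.98 (SE), adjusted p = 1 and *Ret* log2 fold change of -1.80 ± 1.06 (SE), adjusted p = 1. Neurofilament *Nefh* gave log2 fold change of -0.07 ± 0.84 (SE), adjusted p = 1. The mechanosensitive channel Piezo2, listed under its older symbol *Fam38b*, was at 17.5, 13.3, 16.1 and 72.4 CPM in NG/JG and 55, 123, 73.7 and 68.6 CPM in T10-L1 DRG (log2 fold change of -1.43 ± 0.70 (SE), adjusted p = 0.939). *Pvalb*, a calcium buffer of proprioceptors, did not pass the filter. It had 1, 0, 1 and 0 counts in NG/JG and 287, 5, 77 and 53 in T10-L1 DRG, at least 34.3-fold lower in NG/JG by the T10-L1 mean. T10-L1 library 1 was at 41.3 CPM and library 2 at 0.438 CPM, so the bound does not hold for library 2.

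Catecholamine synthesis genes were high in some vagal libraries. *Th*, tyrosine hydroxylase, was at 91.5, 0.224, 178 and 157 CPM in NG/JG and 5.76, 23.3, 0.242 and 8.9 CPM in T10-L1 DRG, with NG/JG library 2 at 2 counts. Tested, it gave a log2 fold change of 3.48 ± 1.55 (SE), unadjusted p = 0.049, adjusted p = 0.837, and the unadjusted p was 0.145 without library 4 of each group, where 4 of the 6 tested genes of the pathway were higher in NG/JG against 6 of 6 in all libraries. *Ddc*, the decarboxylase that follows it, had 284, 1, 239 and 62 counts in NG/JG and 6, 0, 0 and 0 in T10-L1 DRG, the same NG/JG libraries carrying both genes. The 7 synthesis genes summed to 39.5 to 210.4 CPM in NG/JG and 6.63 to 36.5 CPM in T10-L1 DRG, without overlap. Sympathetic neurons share these genes. A list of 13 sympathetic markers summed to 185 to 315 CPM in NG/JG and 62.7 to 95.9 CPM in T10-L1 DRG, above without overlap, with 5 of its 6 tested members higher by the mean and 1 above without overlap, which is *Eya1*, given above among the placode factors. Of the 13 sympathetic markers, *Dbh*, *Npy* and *Slc6a2*, the noradrenaline transporter, had 0 counts in each NG/JG library. The part of sympathetic cells in *Th* and *Ddc* was not tested. For the opioid receptors, *Oprm1* gave log2 fold change of -0.93 ± 1.72 (SE), adjusted p = 1 and *Oprd1* had 5 counts or fewer in each NG/JG library and 11 or fewer in each T10-L1 library.

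Single ephrin and semaphorin genes of axon guidance lay lower in NG/JG. *Efna2* had 0 counts in each NG/JG library and 6.19, 12.5, 4.04 and 6.22 CPM in T10-L1 DRG, at least 19.1-fold lower in NG/JG (unadjusted p = 0.00112). *Efnb3* and its receptor *Ephb1* were at least 13.4-fold and 26.6-fold lower. *Sema7a* was at 1.12, 0, 4.2 and 2.73 CPM in NG/JG and 22, 30.2, 33.3 and 8.51 CPM in T10-L1 DRG. The model gave a log2 fold change of -3.54 ± 1.51 (SE), unadjusted p = 0.0419, adjusted p = 0.791, with an unadjusted p of 0.0523 without library 4 of each group. The 31 semaphorins and plexins summed to 1994 to 2636 CPM in NG/JG and 2694 to 3175 CPM in T10-L1 DRG, below without overlap. The 22 ephrins and ephrin receptors summed to 371 to 687 CPM in NG/JG and 384 to 561 CPM in T10-L1 DRG and overlapped. Of the 14 tested among them, 6 had a higher mean in NG/JG. Of 70 guidance genes 54 were tested, 27 of them passing through T10-L1 DRG alone. Of the 54, 0 lay above and 6 (11.1%) below, beside 1.95% and 6.08% of all genes, with a median log2 fold change of -0.28.

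Subunits of the mitochondrial respiratory chain, which supplies ATP, mostly had higher means in NG/JG. Of 79 tested, 65 had a higher mean in NG/JG, with a median log2 fold change of 0.42, and 7 (8.86%) lay above and 1 below without overlap, beside 1.95% and 6.08% of all genes. *Cox6c* was at 166, 257, 207 and 262 CPM in NG/JG and 106, 117, 82.8 and 121 CPM in T10-L1 DRG (log2 fold change of 1.06 ± 0.31 (SE), unadjusted p = 0.00635, adjusted p = 0.258), and *Uqcr11* at 142, 193, 145 and 182 CPM in NG/JG and 81.8, 97.8, 51.9 and 79.8 CPM in T10-L1 DRG. The test gave a log2 fold change of 1.09 ± 0.35 (SE), unadjusted p = 0.0108, adjusted p = 0.37. The sum over the class was 9395 to 15595 CPM in NG/JG and 8957 to 10991 CPM in T10-L1 DRG, and NG/JG library 1 overlapped. Once both libraries 4 were left out, 63 of 78 were higher, with a median of 0.38. The 1 member below, *Ndufa4l2*, is a pericyte gene, at 0 counts in NG/JG. Cytosolic ribosomal proteins, in contrast, centred at -0.06 over 69 genes, with 1 above and 0 below.

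Genes that respond to handling and injury depended on the libraries counted. Of 25 immediate-early genes 21 were higher in NG/JG, with a median of 0.39, but 12 of 25 were without library 4 of each group. For 17 chaperones the corresponding counts were 14 and 4, and the chaperone *Hspa4l* was at 3.92, 38.7, 16.1 and 2.5 CPM in NG/JG and 81.5, 141, 96.9 and 78.4 CPM in T10-L1 DRG, below without overlap. *Nr4a1*, an activity-induced nuclear receptor, was at 4266, 3136, 3211 and 4281 CPM in NG/JG and 2943, 1483, 2588 and 2226 CPM in T10-L1 DRG, above without overlap (log2 fold change of 0.69 ± 0.28 (SE), unadjusted p = 0.0332, adjusted p = 0.711, and unadjusted p = 0.11 without library 4 of each group), while *Atf3*, the axon injury factor, was at 953, 2703, 495 and 5858 CPM in NG/JG and 1050.1, 2484, 3535 and 1035 CPM in T10-L1 DRG (log2 fold change of 0.30 ± 0.72 (SE), adjusted p = 1). In the interferon list *Ifit1* was at 182, 127, 148 and 555 CPM in NG/JG and 12.7, 27, 77.8 and 72.3 CPM in T10-L1 DRG (log2 fold change of 2.41 ± 0.70 (SE), unadjusted p = 0.00645, adjusted p = 0.261), and *Isg15* and *Xaf1* also lay above without overlap. These 3 of 35 tested genes are 8.57%, beside 1.95% of all genes. Without library 4 of each group, 4 of 35 (11.4%) lay above, beside 5.38% of all genes in the same libraries. *Irf5*, a factor of myeloid cells in the same list, was at 0.14, 0, 0 and 0 CPM in NG/JG and 1.58, 26, 20.6 and 169 CPM in T10-L1 DRG, at least 143-fold lower in NG/JG, with T10-L1 library 4 the highest. *Tnpo3* covers 14.2% of the exons of *Irf5*, so reads of the pair may be mixed.

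The genes that passed the adjusted threshold mark cells of vessels and blood. *Rgs5*, a regulator of G protein signaling in pericytes (chromosome 1, 171585632 to 171625944, plus strand), was at 0.14, 0.224, 0.135 and 0.119 CPM in NG/JG and 243, 83.3, 88 and 198 CPM in T10-L1 DRG, at least 403-fold lower in NG/JG (adjusted p = 0.00199). *Acta2*, smooth muscle actin (chromosome 19, 34315580 to 34329826, minus strand), was at 0, 0.224, 0.948 and 0.357 CPM in NG/JG and 435, 191, 45.2 and 323 CPM in T10-L1 DRG (log2 fold change of -9.31 ± 1.14 (SE), adjusted p = 0.0386). Of 17 mural markers 14 were tested, 7 below without overlap and 0 above, among them *Notch3* at 0.14, 0, 0.542 and 0.119 CPM in NG/JG and 49.5, 44.9, 29 and 20.5 CPM in T10-L1 DRG and *Cd248*, at least 74.4-fold lower. Of all tested genes 6.08% lay below and 1.95% above. The filter was met through T10-L1 DRG alone by 10 of the 14 mural markers, so their counts say nothing about the class. The list summed to 300.4 to 781 CPM in NG/JG and 738 to 2069.7 CPM in T10-L1 DRG. The sums overlapped, and so did 7 of the 14 tested markers, of which 1 had a higher mean in NG/JG. *Rgs5*, *Cnn1* and *Higd1b* had 2 counts or fewer in each NG/JG library.

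*S100a9*, a neutrophil calgranulin (chromosome 3, 90496554 to 90499643, minus strand), was at 0.28, 0.112, 0.135 and 0.119 CPM in NG/JG and 112, 101, 18.3 and 192 CPM in T10-L1 DRG, at least 279-fold lower in NG/JG (adjusted p = 0.0305). *Ngp*, a granule protein (chromosome 9, 110322254 to 110325514, plus strand), was at 0.699, 0.224, 0.406 and 0.238 CPM in NG/JG and 197, 123, 16.7 and 369 CPM in T10-L1 DRG (log2 fold change of -8.79 ± 1.09 (SE), adjusted p = 0.0386). *S100a8*, the partner of *S100a9*, missed the threshold (log2 fold change of -9.40 ± 1.24 (SE), adjusted p = 0.0518). All 10 tested neutrophil markers had a lower mean in NG/JG and 6 (60%) lay below without overlap, beside 6.08% of all genes. The filter was met through T10-L1 DRG alone by 9 of the 10, so these counts say nothing about the class. The 17 measured summed to 0.672 to 89.1 CPM and 136 to 1331 CPM, below without overlap, and *Alas2* of red cell precursors was at least 14.4-fold lower. Fibroblast markers summed to 2455 to 8792 CPM in NG/JG and 9224 to 31849.8 CPM in T10-L1 DRG, without overlap. *Slc6a13*, a transporter of meningeal fibroblasts, was at 0.28, 0, 0 and 0 CPM in NG/JG and 8.78, 2.54, 5.25 and 12.8 CPM in T10-L1 DRG. Macrophage and MHC class II genes were lower in NG/JG by the mean in 21 of 21, and T10-L1 library 4 stood apart, at 47254 CPM, against 2083 to 3634 CPM in the other T10-L1 libraries. The NG/JG libraries summed to 10845, 532, 82.7 and 2309 CPM, so that NG/JG library 1 lay above every T10-L1 library but library 4. The median log2 fold change of these genes was -2.12, and 0.18 without T10-L1 library 4. Without library 4 of each group 17 of 21 were higher in NG/JG. The part of these cells in the neuronal differences above was not tested.

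*Fabp7*, the brain lipid-binding protein of satellite glia, was higher in NG/JG at 1962, 1516, 2826 and 1877 CPM in NG/JG and 1433, 842, 636 and 591 CPM in T10-L1 DRG, without overlap. For it the fit gave a log2 fold change of 1.22 ± 0.35 (SE), unadjusted p = 0.00573, adjusted p = 0.244. It was the only one of 18 satellite glial markers to lie apart, and the other 17 overlapped. None of 16 Schwann cell myelin genes lay apart, with a median log2 fold change of 0.30. Of all tested genes 1.95% lay above and 6.08% below.

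**Figure D5:**
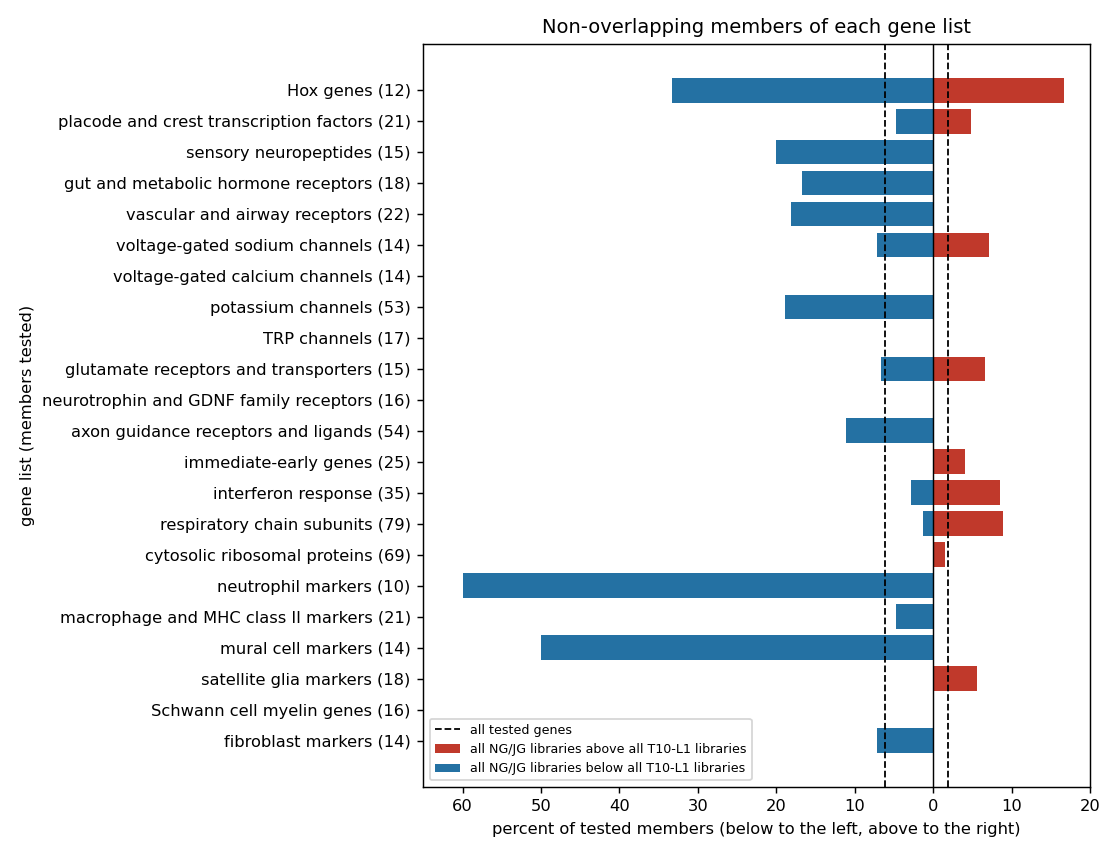
Share of the tested members of 22 gene lists (y axis, number tested in parentheses) that lay above (red, to the right) or below (blue, to the left) without overlap between NG/JG and T10-L1 DRG (x axis, percent), with dashed lines at 1.95% and 6.08% of all tested genes. Among the lists drawn, neutrophil and mural markers and Hox genes lay below most often (60%, 50% and 33.3%), and Hox genes (16.7%) and the respiratory chain (8.86%) lay above most often. The filter was met through T10-L1 DRG alone by 9 of 10 neutrophil, 10 of 14 mural and 7 of 12 Hox genes. Their shares below therefore say nothing about these classes.

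The largest differences in either direction lay mostly outside these classes. *Dcdc2a*, a doublecortin-domain gene, was at 15.7, 332, 17.6 and 162 CPM in NG/JG and 0.576, 0.175, 0.242 and 0.945 CPM in T10-L1 DRG. The fit returned a log2 fold change of 8.05 ± 1.34 (SE), unadjusted p = 0.000143, adjusted p = 0.115. *Efcab6*, a calcium-binding protein, was at 8.39, 39.3, 92.9 and 98.4 CPM in NG/JG and 1.01, 0.351, 0.081 and 0 CPM in T10-L1 DRG. edgeR gave it a log2 fold change of 7.39 ± 1.58 (SE), unadjusted p = 0.000939, adjusted p = 0.115. *Hpcal4*, a neuronal calcium sensor, was at 10.5, 42.3, 18.8 and 18.1 CPM in NG/JG and 0.864, 0, 0 and 0.079 CPM in T10-L1 DRG. This was a log2 fold change of 6.57 ± 1.90 (SE), unadjusted p = 0.00635, adjusted p = 0.258. The unnamed transcript *2410057H14Rik* was at least 34.3-fold higher in NG/JG. *Slc25a45*, a mitochondrial carrier, and *Gpr30*, the membrane estrogen receptor, had 0 counts in each NG/JG library and 26.8, 19.5, 8.89 and 56.3 CPM and 44.6, 10.5, 18.1 and 26.6 CPM in T10-L1 DRG, at least 73.4-fold and 65.7-fold lower. *Fzd4*, a Wnt receptor of endothelium, and *Retnlg*, a neutrophil resistin-like protein, were at least 45.5-fold and 60.6-fold lower, also from 0 counts. Exons of *2410057H14Rik* overlap those of *Tspan2* over 14.9% of their length, those of *Alas2* overlap *Apex2* over 12.9% and those of *Cox6c* overlap *Vps13b* over 7.01%, so these values are uncertain to that extent.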

How the data were processed

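RNA-seq counts of TdTomato-positive cells sorted from NG/JG and T10-L1 DRG were used, 4 libraries each. Per the study's methods, the authors sequenced single reads of 50 bases from oligo-dT SMART-seq2 cDNA, ran TopHat2 with its defaults on mm9, and tallied genes by HTSeq-count. The deposited files give unnormalized counts. The annotation, strand setting and tool versions are not given in the sources used here. The 5 rows of uncounted reads were dropped, which left 22609 genes.

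Counts were scaled to TMM-adjusted CPM, filtered with filterByExpr (12430 genes kept) and tested with the quasi-likelihood fit and test of edgeR 4.0.16 in R 4.3.3, with group as the only term and Benjamini-Hochberg adjustment over all genes tested. The SE printed with a log2 fold change is its absolute value divided by the square root of the F statistic of the quasi-likelihood test. It therefore restates that test and is not a separate measure of spread. The fit was tested on simulated data. Where no library of a group exceeded 3 counts, folds are lower bounds against 3 counts in each library. Counting error only is covered by this floor, which was 0.236 to 0.432 CPM across libraries. Groups do not overlap where the lowest CPM of one exceeds the highest of the other. Gene positions are from GENCODE M1 on the mm9 assembly. Replicate numbers in the titles are not described as shared animals.

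The 38 hand-written lists and 17 lists by symbol pattern, and the libraries compared, were chosen with earlier results of these data known. Genes were named if adjusted p was under 0.05, if the naming rule lists them, if among up to 4 members per direction of a neuronal list (3 of other lists) with the lowest unadjusted p under 0.05 and no overlap, or if among the 5 largest such changes per direction. Further genes, sums and motifs in the text were chosen after their values were seen. Some genes are not reported here. Alternatives were DESeq2 1.42.0, edgeR's likelihood-ratio and robust tests, limma-voom 3.58.1 with quality weights, other scaling, no filter, all 16 libraries, a replicate block, thinning to the shallowest library and leaving out libraries.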

Additional observations from a re-analysis of the deposited data

Results flagged for a closer look

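For normally distributed values, chance would flag about 1 in 20 groups by Dixon's test. CPM near 0 need not be so distributed, so the count of flags cannot be read as an excess. In 21 of 156 groups of 4 libraries, for 78 named genes, the highest library stood far from the other 3 by that test on CPM. In NG/JG library 1 these were *Hoxa7* at 2.66 CPM (others 0 to 0.135), *Runx1* at 41 CPM (others 0 to 0.677), *Itgam* at 4.34 CPM (others 0.112 to 0.677), *Phox2a* at 9.09 CPM (others at 0) and *Ano1* at 0.699 CPM (others at 0). *Runx1* and *Itgam* are also genes of myeloid cells, and the macrophage list was at its vagal maximum in this library. In NG/JG library 2 it was *Htr3b* at 16.4 CPM (others 0 to 1.08) and in library 3 *Pirt* at 297 CPM (others 23.2 to 64.7). NG/JG library 4 stood apart for *Ifit1* at 555 CPM (others 127 to 182), *Gpr65* at 89.6 CPM (others 0.135 to 11.2), Piezo2, listed as *Fam38b* at 72.4 CPM (others 13.3 to 17.5), and *Oprd1* at 0.595 CPM (others at 0).

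Among the T10-L1 libraries, library 1 stood apart for *Ephb1* at 27.1 CPM (others 3.96 to 4.82), *Pvalb* at 41.3 CPM (others 0.438 to 6.22), *Oprd1* at 1.58 CPM (others 0 to 0.0877), *Ddc* at 0.864 CPM (others at 0) and *Hpcal4* at 0.864 CPM (others 0 to 0.0788). Library 2 did for *Cckar* at 8.86 CPM (others 0.144 to 1.18) and library 3 for *Htr3a* at 187 CPM (others 1.26 to 11.6). Library 4 did for *Itgam* at 257 CPM (others 16.6 to 21.2), *Irf5* at 169 CPM (others 1.58 to 26) and *Gpr65* at 150 CPM (others 2.16 to 13.3), all genes of myeloid cells, in the library with the most macrophage transcripts. The part of macrophages in these 3 values was not tested.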

How the results depend on the processing

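The count of genes at an adjusted p under 0.05, 4 in the main test, was 388 by DESeq2 (where 701 genes had no adjusted p), 334 by the likelihood-ratio test, 1 by limma-voom with quality weights, 9 without a filter, 54 with all 16 libraries and 0 without library 4 of each group, an alternative chosen after seeing the data (where 222 higher and 578 lower passed an unadjusted p under 0.05). Leaving out 1 library at a time gave 1 to 5. Genes higher at an unadjusted p under 0.05, 230 in the main test, were 516 by DESeq2 and 119 to 415 with 1 library left out. Genes lower, 505 in the main test, were 1147 by limma-voom, 1394 without a filter, 1406 with all 16 libraries and 421 to 1583 with 1 library left out. Deviations of same-numbered libraries correlated at -0.0107, 0.0627, -0.00154 and -0.0093, beside -0.148 to 0.221 for libraries of different numbers. This does not settle whether the replicate numbers pair the libraries, which the labels do not say. With a replicate block 0 genes passed the adjusted threshold, and 87 were higher and 685 lower at an unadjusted p under 0.05. The median log2 fold change of all genes moved from 0.02 to -0.64 by limma-voom, -0.65 with the block and -0.27 without a filter.

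Of 1341 log2 fold changes of 71 named genes, 21 reversed, in 8 genes whose adjusted p was over 0.05 in the main test. By limma-voom *P2rx3* was -0.23, *Nefh* 0.24 and *Atf3* -0.76. With the replicate block *Pirt* was -0.22, *P2rx3* -0.57, *Trpv1* -0.66 and *Atf3* -0.06. Without library 4 of each group *Nefh* was 0.06 and *Atf3* -0.77. With 1 library left out, values ranged from -1.11 to 0.75 for *Pirt*, -1.02 to 0.68 for *P2rx3*, -2.52 to 1.27 for *Htr3b*, -3.45 to 2.08 for *Gpr65*, -0.38 to 1.73 for *Trpv1*, -0.32 to 0.42 for *Nefh*, -0.95 to 0.14 for *Ntrk3* and -0.55 to 0.71 for *Atf3*. Of 519 medians of lists and of all genes under the alternatives, 38 moved by over 1 SD between vagal libraries and 35 took the other sign. The cause of these changes was not tested. Depth limits statements on genes at 0 counts to under 3 counts per library, and the gaps among vagal libraries limit every gene near 0 in NG/JG.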

Other observations

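Outside the classes above, genes chosen after their values were seen gave the following. *Fgf1*, a growth factor without a secretion signal, was at 482, 448, 503 and 373 CPM in NG/JG and 199.5, 261, 275 and 270.1 CPM in T10-L1 DRG, above without overlap. Its fit had a log2 fold change of 0.84 ± 0.25 (SE), unadjusted p = 0.00701, adjusted p = 0.275. The orphan receptor *Gpr146* was at 206, 171, 113 and 112 CPM in NG/JG and 50.5, 65.2, 62 and 61 CPM in T10-L1 DRG. Tested, it gave a log2 fold change of 1.33 ± 0.37 (SE), unadjusted p = 0.00538, adjusted p = 0.232. *Gpr126*, an adhesion receptor that Schwann cells need for myelination, also lay above in every vagal library, at 134, 140.3, 142 and 157 CPM in NG/JG and 87.2, 117, 88.9 and 77.5 CPM in T10-L1 DRG.

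Vesicle fusion genes split by member. *Snap25* was at 364, 1289, 1154 and 1447 CPM in NG/JG and 440.3, 389, 335 and 202 CPM in T10-L1 DRG (log2 fold change of 1.64 ± 0.43 (SE), unadjusted p = 0.00384, adjusted p = 0.185), and *Syt4* gave log2 fold change of 1.31 ± 0.52 (SE), adjusted p = 0.694 (unadjusted p = 0.0315, and 0.137 without library 4 of each group). *Syt6* was at 0.28, 0.224, 0.677 and 0 CPM in NG/JG and 16.8, 98.7, 87.6 and 31.6 CPM in T10-L1 DRG, below without overlap (log2 fold change of -7.59 ± 1.37 (SE), unadjusted p = 0.000275, adjusted p = 0.115), and *Snap29* was at 1.54, 0, 0.135 and 0 CPM in NG/JG and 39.7, 19.9, 42.5 and 43.3 CPM in T10-L1 DRG. The model gave a log2 fold change of -6.42 ± 1.78 (SE), unadjusted p = 0.00491, adjusted p = 0.218. The 44 synaptotagmins and SNAREs summed to 3428 to 5259 CPM in NG/JG and 2943 to 3649 CPM in T10-L1 DRG and overlapped. The 32 integrins summed to 1089 to 2009 CPM in NG/JG and 2076 to 2271 CPM in T10-L1 DRG, below without overlap, with 16 of 21 tested members lower by the mean. *Olfr558*, an olfactory receptor that vascular smooth muscle expresses, had 0 counts in each NG/JG library and 3.74, 19.6, 5.74 and 32.6 CPM in T10-L1 DRG, the single olfactory receptor that passed the filter of 1125 in the tables.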
